A study of Mus musculus with 380 samples.

Results

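Conventional CD4 T cells from mouse melanomas were divided by whether transcripts of Tcf7 were detected, and the 2 sides were compared on each of 2 plates. Tcf7 encodes TCF-1, a transcription factor of naive, memory and follicular helper T cells. Each library was a single cell sequenced by Smart-seq2, a plate-based protocol, and levels are given in FPKM, which scales fragments by transcript length and library total. The members were chosen by measured values. A cell counted as conventional with at least 1000 genes above FPKM 1 and with Foxp3, which specifies regulatory T cells, at most FPKM 1. It counted as Tcf7-detected above FPKM 1 and as Tcf7-undetected otherwise. The series holds 4 plates of 94 single cells each, and 83 cells on its 2 CD4 plates met these criteria, 45 Tcf7-detected and 38 Tcf7-undetected.

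The cells had infiltrated B16F10 tumours, a transplantable melanoma, in C57BL/6 mice. One plate came from mice labelled as lacking Il27ra, which encodes the ligand-specific part of the receptor for interleukin-27 (IL-27), with the code KO4. It gave 12 Tcf7-detected and 19 Tcf7-undetected cells. The other came from wild-type (WT) mice with the code WT4 and gave 33 Tcf7-detected and 19 Tcf7-undetected cells. Il27ra itself was above FPKM 1 in 41.7% of Tcf7-detected and 31.6% of Tcf7-undetected cells on the plate labelled KO, and in 45.5% and 31.6% on the WT plate. Detection of the gene thus does not separate the plates, and whether these reads lie outside a deleted stretch was not tested, so KO plate below means the plate with that label. The labels give no age or sex, do not say how many animals a code stands for, and mark the WT plate p2 and the KO plate p1. The treatment protocol names CD8 cells only, so the CD4 lineage rests on the titles and on Cd4 and Cd8a below. No test was run, since cells from a single plate do not replicate a condition and a measured gene chose the sides. Each plate gives 1 difference per gene. A cell in which the transcript was present but not captured counts as undetected.

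TCF-1 and its relative LEF-1 bind DNA through a shared type of domain and act with the coactivator beta-catenin or with corepressors of the Groucho family. In T cells TCF-1 is known for sustaining cells that can still divide and recirculate, and it is lost as cells become terminal effectors. CD4 cells with Tcf7 commonly belong to naive, central memory or follicular helper populations, whereas tissue-resident and cytotoxic effectors carry little of it.

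The sides had similar median numbers of genes per cell. The KO plate had a median of 2066.5 genes above FPKM 1 in Tcf7-detected and 2218 in Tcf7-undetected cells. The WT plate had medians of 1886 and 1896. Genes per cell on the WT plate ran from 1404 to 2863 in Tcf7-detected and from 1023 to 4090 in Tcf7-undetected cells. On the KO plate they ran from 1802 to 4543 and from 1829 to 4844. Median summed FPKM was 655636 and 812776 on the KO plate, and 614241 and 654307 on the WT plate. A floor of 500 genes would have added only Tcf7-undetected cells. Similar medians thus do not show equal depth. Cd4 was detected in 11 of 12 Tcf7-detected and 17 of 19 Tcf7-undetected cells on the KO plate, and in 28 of 33 and 17 of 19 on the WT plate. Cd8a was detected in 1 of 12 and 1 of 19 cells on the KO plate, and in 0 of 33 (which allows up to 9.09%) and 2 of 19 on the WT plate. At least 1 CD3 chain was detected in all 45 Tcf7-detected cells and in 17 of 19 undetected cells on the KO plate and 18 of 19 on the WT plate. At least 3 macrophage and monocyte marker genes were detected in 5 of the 83 cells. They were 1 Tcf7-detected and 2 Tcf7-undetected cells on the KO plate, and 1 of each on the WT plate. Of the undetected ones, 2 (1 on each plate) had no CD3 chain detected. The summed FPKM of the 11 macrophage markers in the file had a median of 0 on every side and reached 26531 in Tcf7-detected and 44077 in Tcf7-undetected cells on the KO plate, and 2534 and 168504 on the WT plate. No B cell marker was detected in any of the 83 cells. At least 3 dendritic cell and MHC class II genes were detected in 2 Tcf7-detected and 2 Tcf7-undetected cells on the KO plate, and in 1 of each on the WT plate. Their summed FPKM reached 111992 and 117688 on the KO plate, and 866 and 153840 on the WT plate. That of NK and innate-like markers reached 6437 and 11023, and 473 and 12925. Values without the 5 cells with macrophage genes are given below for some of the genes and lists.

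All but 1 of the Tcf7-detected cells lay far above the threshold. In the 12 Tcf7-detected cells of the KO plate they ran from 22.1 through a median of 162.5 to 810.7 FPKM, and in the 33 of the WT plate from 2.06 through 372.4 to 2113 FPKM. The cell nearest above the threshold had 2.06 FPKM, the next on that plate 23.8 FPKM, and all 38 undetected cells were at 0. In GRCm38, Tcf7 spans 52252371 to 52283014 of chromosome 11 on the minus strand. Tcf7-detected cells were 38.7% of conventional cells on the KO plate (exact 95% interval 21.9 to 57.8) and 63.5% on the WT plate (48.96 to 76.4). Among cells with Foxp3 above FPKM 1, Tcf7 was detected in 5 of 42 on the KO plate and in 0 of 27 on the WT plate, which allows up to 11.1%.

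Socs3, Slamf6 and S1pr1 were among the genes higher in Tcf7-detected cells on both plates, and Cxcr6, Rgs1 and Ccl5 were among those lower. For each gene the mean of log2(FPKM + 1) over Tcf7-undetected cells was subtracted from that over Tcf7-detected cells, and 3792 genes entered the comparison, being detected in at least 20% of 1 side on each plate. A gene was called when the difference was at least 1 in the same direction on both plates. This held for 93 genes that were higher (2.45% of those compared) and for 4.03% of genes that were lower. On the KO plate alone 14.6% of genes were higher and 20.7% lower by that much, and on the WT plate alone 14.3% and 13.6%. Differences of at least 1 ran in opposite directions for 1.79% of genes that were higher on the KO plate and 2.74% that were higher on the WT plate. The 2.45% called higher lay between these 2 shares, and the 4.03% called lower above both. Across the 3792 genes the plates' differences correlated with a Pearson r of 0.08. Differences of this size were thus frequent on a single plate of 12 to 33 cells a side, and most did not recur on the other. The exact intervals of the detection shares were apart on both plates for 0 called genes. They were apart on the KO plate for Slamf6, and on the WT plate for Tagap and Bcl2a1d. All 24 genes ranked highest by the smaller of their 2 differences kept a difference of at least 1 on both plates without the 5 cells with macrophage genes. Under other settings fewer did. These were 17 with at least 2000 genes per cell, 20 with at least 500, and 14 on the log2 ratio of mean FPKM between the sides.

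**Figure D1:**
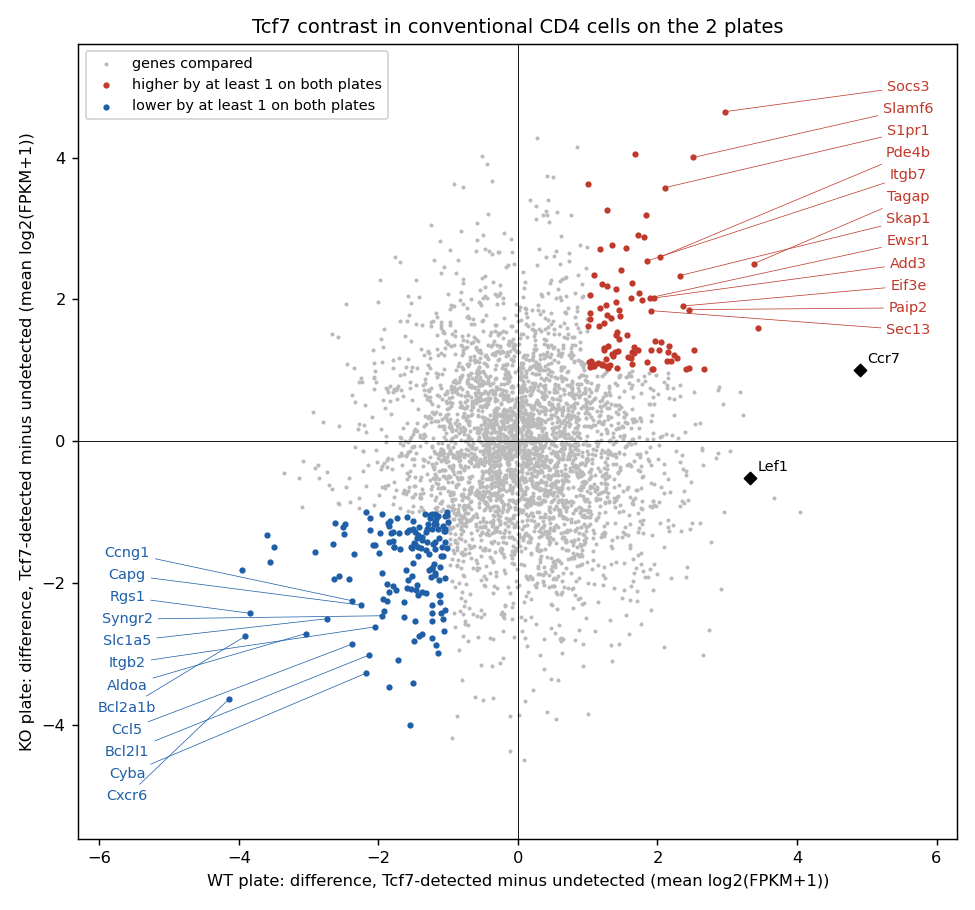
Difference between Tcf7-detected and Tcf7-undetected conventional CD4 cells (mean log2(FPKM + 1)) for 3792 genes on the KO plate (vertical axis) and the WT plate (horizontal axis), with the 12 top-ranked genes per direction labelled and Lef1 and Ccr7 as diamonds. Ccr7 did not meet the detection filter and is not among the 3792 genes. The cloud has little slope (r = 0.08), and Socs3, Slamf6 and S1pr1 stand out in the upper right and Cxcr6 in the lower left.

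S1pr1, the sphingosine phosphate receptor that guides T cells out of tissues, was higher in Tcf7-detected cells on both plates. On the KO plate it was above FPKM 1 in 11 of 12 Tcf7-detected cells, with a median of 169.7 and a maximum of 1265 FPKM, against 8 of 19 Tcf7-undetected cells with a median of 0 and a maximum of 1119 FPKM. In WT cells it was above FPKM 1 in 26 of 33 Tcf7-detected cells, with a median of 208.8 and a maximum of 1457 FPKM, against 11 of 19 Tcf7-undetected cells with a median of 9.09 and a maximum of 477.1 FPKM. The sides overlapped on both plates. The differences were 3.58 and 2.10 (log2, KO plate and then WT plate, here and below). In cells matched on genes detected the WT difference was 0.89.

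Ccr7, the receptor for entry into lymph nodes, was detected mainly on the WT plate. It was detected in 17 of 33 Tcf7-detected WT cells (51.5%, 33.5 to 69.2), with a median of 334.98 and a maximum of 4744 FPKM, against 1 of 19 Tcf7-undetected cells at 806.7 FPKM. Under the KO label only 2 of 12 Tcf7-detected and 1 of 19 Tcf7-undetected cells had it, so the difference of 1.00 there rests on 3 cells, while that on the WT plate was 4.90. In cells matched on genes detected it was 0.77 and 4.41. Itgb7, a gut-homing integrin chain, was called higher with 2.54 and 1.85, but the ratio of mean FPKM, Tcf7-detected over undetected, was 0.78 and 0.82. S1pr4, a further sphingosine phosphate receptor, had 2.09 and 0.82.

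Cxcr6, a chemokine receptor of tissue-resident and effector T cells, was the gene lower by most on both plates by the smaller difference. The KO plate had it in 6 of 12 Tcf7-detected cells, with a median of 133.6 and a maximum of 3557 FPKM, against 16 of 19 Tcf7-undetected cells with a median of 962.9 and a maximum of 5619 FPKM. The WT plate had it in 6 of 33 Tcf7-detected cells, with a median of 0 and a maximum of 2520 FPKM, against 11 of 19 Tcf7-undetected cells with a median of 316.1 and a maximum of 5221 FPKM. The differences were -3.63 and -4.15. The integrin chains Itgb1 (-1.90 and -2.56) and Itgb2 (-2.61 and -2.05) were also called lower. On the ratio of mean FPKM, and with at least 500 genes per cell, Itgb2 no longer passed 1 on both plates. Of 18 measured homing and egress receptors, 8 were higher and 6 lower on both plates, against 21.1% and 28% of the 8887 genes that met the lists' filter. The list medians were 0.30 and 0.09, and those of the 8887 genes -0.13 and 0.00. Members past 1 on both plates were 3 higher (S1pr1, Itgb7 and Ccr7) and 2 lower, against 1.19% and 1.85% of the 8887 genes. Cxcr3, a receptor of type 1 helper cells, had -4.49 and 0.09, and -4.57 and -0.35 without the 5 cells with macrophage genes. It was detected in 1 of 12 Tcf7-detected against 10 of 19 Tcf7-undetected cells on the KO plate, but in 20 of 33 against 13 of 19 on the WT plate.

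Detection of S1pr1 and Cxcr6 was also counted jointly in each cell. S1pr1 without Cxcr6 was found in 50% of Tcf7-detected (21.1 to 78.9) and 5.26% of Tcf7-undetected cells (0.13 to 26.03) on the KO plate. On the WT plate the shares were 63.6% (45.1 to 79.6) and 31.6% (12.6 to 56.6). The opposite pattern, Cxcr6 without S1pr1, was found in 8.33% of Tcf7-detected and 47.4% of Tcf7-undetected cells on the KO plate, and in 3.03% and 31.6% on the WT plate. Both genes together were detected in 41.7% and 36.8% of cells on the KO plate and in 15.2% and 26.3% on the WT plate. The intervals for S1pr1 without Cxcr6 overlapped between the sides on both plates. This pair was chosen after the values were seen, from genes called in opposite directions between these sides. The joint shares therefore add no support to those calls.

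**Figure D2:**
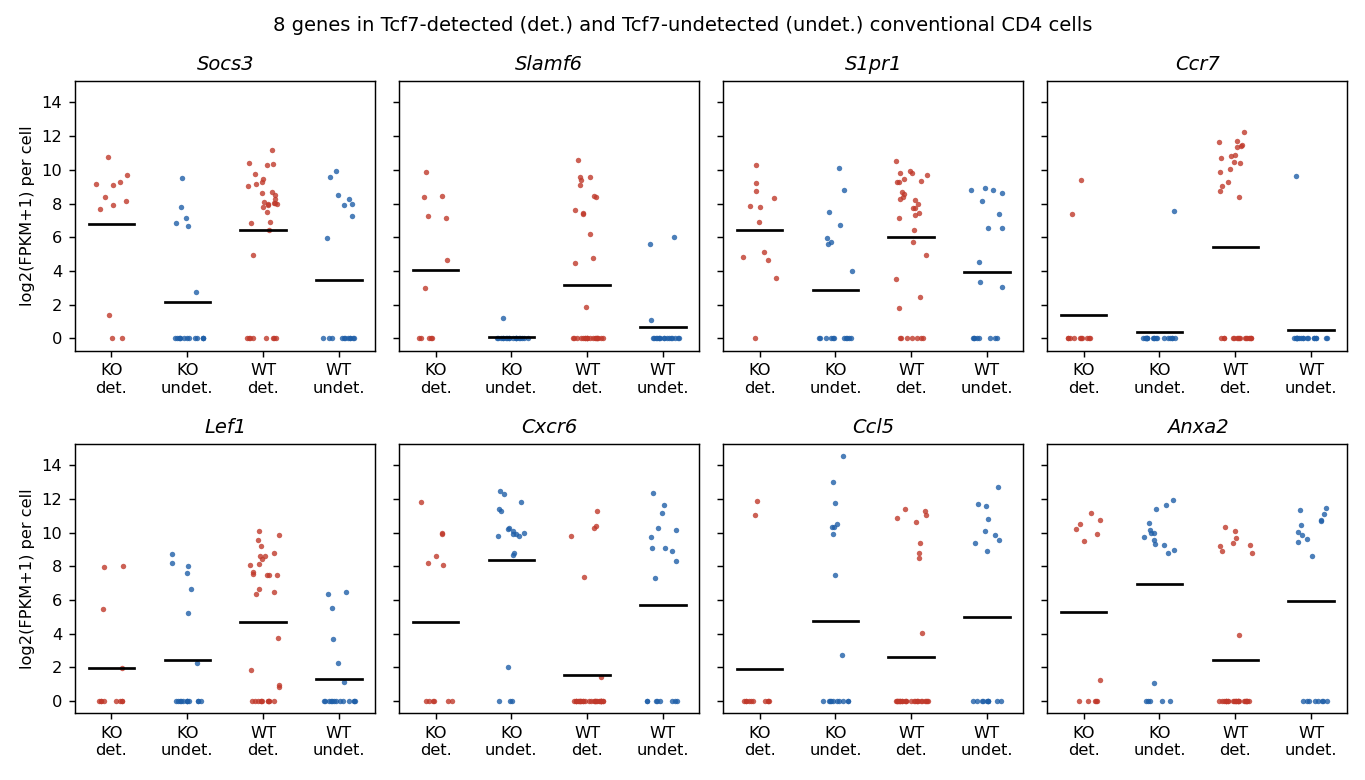
Expression per cell (vertical axis, log2(FPKM + 1)) of 8 genes in Tcf7-detected (red) and Tcf7-undetected (blue) conventional CD4 cells of the KO and WT plates, with each point a cell and black lines the means. For each gene many cells sit at 0, and in Cxcr6 and S1pr1 the sides differ in how many do, as in 6 of 12 against 16 of 19 KO plate cells with Cxcr6.

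Lef1, the close relative of Tcf7, was higher in Tcf7-detected cells on the WT plate only. There it was detected in 20 of 33 Tcf7-detected cells, with a median of 89.02 and a maximum of 1080 FPKM, against 6 of 19 Tcf7-undetected cells with a median of 0 and a maximum of 88.06 FPKM, a difference of 3.33. On the KO plate it was detected in 4 of 12 Tcf7-detected and 7 of 19 Tcf7-undetected cells, a difference of -0.51 (-1.12 without the 5 cells with macrophage genes, and 0.35 in matched cells). Aes, a short Groucho-family protein gene, was the member of the TCF/LEF and beta-catenin list called higher, with 1.34 and 2.17, but had 0.99 and 2.05 without the 5 cells with macrophage genes, which ends the list's single call. The other 9 measured members held no call, and the medians were -0.30 and 0.11.

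Regulators of naive and memory T cells were more often higher than lower. Of 20 measured members, 9 were higher on both plates and 0 lower on both, beside 21.1% and 28% of the 8887 genes, with medians of 0.24 and 0.81. Il6ra, a chain of the interleukin-6 receptor, was the member called (1.19% of the 8887 genes were called higher), with 2.20 and 1.28. Its signalling partner Il6st, also a chain of the IL-27 receptor, had 1.30 and 0.90. Il7r, whose product receives the survival cytokine interleukin-7, was detected in all 12 Tcf7-detected cells of the KO plate against 11 of 19 Tcf7-undetected ones. On the WT plate it was detected in 22 of 33 against 10 of 19. Its medians were 498.8 FPKM in Tcf7-detected and 21.5 FPKM in Tcf7-undetected cells on the KO plate and 57.6 and 27.8 FPKM on the WT plate, with differences of 4.15 and 0.85. The transcription factor gene Ets1 had 0.96 and 1.88, and the co-stimulator gene Cd27 0.82 and 0.78.

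Among genes of cytokine signalling, the feedback inhibitors differed in direction. Socs3, which restrains receptors that use the Il6st chain, ranked first among the genes called higher. Under the KO label it was detected in 10 of 12 Tcf7-detected cells, with a median of 306.6 and a maximum of 1704 FPKM, against 6 of 19 Tcf7-undetected cells with a median of 0 and a maximum of 723.9 FPKM. In WT it was detected in 25 of 33 Tcf7-detected cells, with a median of 251.4 and a maximum of 2263 FPKM, against 8 of 19 Tcf7-undetected cells with a median of 0 and a maximum of 956.7 FPKM. The sides overlapped, and the differences were 4.65 and 2.97. Socs1, which restrains interferon and interleukin-2 signals, had 1.09 and 1.64, but 0.76 and 1.59 in matched cells and 0.67 and 1.56 without cells above 4000 genes, where it no longer passed. Cish, induced through STAT5, was lower with -1.94 and -2.64, as were the interleukin-2 and interleukin-15 receptor chain gene Il2rb (-2.26 and -1.11) and the interleukin-10 receptor chain gene Il10ra (-1.03 and -1.23). Without cells above 4000 genes Il10ra had -1.07 and -0.91. Of the 23 measured members 9 were higher and 5 lower on both plates, beside 21.1% and 28% of the 8887 genes, with medians of 0.33 and 0.33. Without the 5 cells with macrophage genes the medians were -0.05 and 0.38. Among cells with at least 2000 genes Socs3 no longer passed 1 on both plates.

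Slamf6, a surface receptor of follicular helper and progenitor-like T cells, was detected in 7 of 12 Tcf7-detected cells on the KO plate, with a median of 15.6 and a maximum of 927.2 FPKM. Only 1 of 19 Tcf7-undetected cells there had it, at 1.32 FPKM. The WT plate had it in 14 of 33 Tcf7-detected cells, up to 1548 FPKM, against 3 of 19 Tcf7-undetected cells, up to 62.6 FPKM. The differences were 4.0 and 2.51, and no Tcf7-undetected cell of either plate passed 62.6 FPKM. Slamf6 lies on chromosome 1 at 171917515 to 171953170, plus strand, in GRCm38. The follicular helper list, Slamf6 included, had medians of -0.13 and 0.70 over 9 measured members. Of these, 2 were higher and 2 lower on both plates, beside 21.1% and 28% of the 8887 genes. Bcl6, the factor that directs that fate, had 1.01 and 0.95, detected in 3 of 12 against 1 of 19 cells on the KO plate and 8 of 33 against 1 of 19 on the WT plate. Cxcr5, the follicle homing receptor, was detected in 4 of 33 Tcf7-detected WT cells and on no other side. Icos, a co-stimulator, was lower with -1.03 and -0.84, and Pdcd1, which encodes PD-1, had -1.50 and -0.03.

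The remaining 8 of the 12 top-ranked higher genes were less specific to T cell subsets. Tagap, a GTPase-activating protein gene of activated T cells, was detected in 8 of 12 Tcf7-detected against 9 of 19 Tcf7-undetected cells on the KO plate, and in 19 of 33 against 2 of 19 on the WT plate, with differences of 2.50 and 3.38. Skap1, an adaptor in integrin activation, had 2.34 and 2.32, and Pde4b, which degrades cyclic AMP, 2.60 and 2.04. The cytoskeletal adducin gene Add3 had 2.02 and 1.95, the translation genes Eif3e 1.91 and 2.37 and Paip2 1.86 and 2.45, the RNA-binding protein gene Ewsr1 2.02 and 1.89, and the vesicle coat gene Sec13 1.84 and 1.91. On the ratio of mean FPKM, Tagap, Add3, Eif3e, Ewsr1 and Sec13 no longer passed 1 on both plates. Pde4b and Paip2 no longer did among cells with at least 2000 genes. Cd3d, a chain of the T cell receptor complex, was also called higher with 1.14 and 2.13, but had 0.43 and 1.98 in matched cells, while Cd3g had -0.51 and -0.97. The AP-1 gene Fos was called higher with 4.04 and 1.68. Its list of immediate-early and heat shock genes had 27 measured members, 9 higher and 9 lower on both plates. The shares of the 8887 genes were 21.1% and 28%.

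Several effector genes were lower in Tcf7-detected cells. Ccl5, a chemokine of effector cells, was detected in 2 of 12 Tcf7-detected cells against 9 of 19 Tcf7-undetected ones on the KO plate, with maxima of 3674 and 23767 FPKM. In WT it was detected in 9 of 33 against 9 of 19, with maxima of 2725 and 6745 FPKM, and the differences were -2.86 and -2.38. Among cells with at least 2000 genes Ccl5 was no longer lower on both plates. Nkg7, a cytotoxic granule gene, had -4.0 and -1.55. Il18rap, an interleukin-18 receptor chain, had -2.21 and -1.94, and the interleukin-12 receptor chain Il12rb2 -1.03 and -1.02. Of 15 measured type 1 helper genes, 1 was higher and 8 were lower on both plates, beside 21.1% and 28% of the 8887 genes, with medians of -0.89 and -0.77, and 3 were called lower, beside 1.85%. Tbx21, which encodes the type 1 regulator T-bet, had -2.36 and 0.57, and Ifng -0.66 and -1.06. Of 17 cytotoxic genes, 2 were higher and 7 lower on both plates, beside the same shares, with medians of -0.57 and -0.53. Il21 was detected in at most 1 cell on any side.

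Regulatory and inhibitory genes were lower more often than higher, as were the 8887 genes as a whole (28% lower and 21.1% higher on both plates). Of 13 measured regulatory T genes, 1 was higher and 9 were lower on both plates, with medians of -0.74 and -0.56. Tnfrsf9, which encodes the activation receptor 4-1BB, was detected in 0 of 12 Tcf7-detected against 7 of 19 Tcf7-undetected cells on the KO plate, where 0 of 12 allows up to 25%. On the WT plate it was detected in 1 of 33 against 6 of 19, and the differences were -3.40 and -1.51. Il2ra had -2.09 and -0.56, and Ikzf2 -0.64 and -0.87, with 0.15 and -1.12 in matched cells. Of 13 co-inhibitory receptors, 2 were higher and 6 lower on both plates and 0 were called, with medians of -0.72 and -0.27. Tigit had -2.39 and -0.84, Ctla4 -0.74 and -0.70, and Havcr2 -0.72 and -0.27. Without the 5 cells with macrophage genes Havcr2 had -0.81 and 0.06. Bhlhe40, a transcription factor of tissue-resident and cytokine-producing T cells, was called lower with -3.08 and -1.72, and Irf8 with -1.12 and -1.83. In matched cells Irf8 had -0.17 and -1.15 and no longer passed. The list of effector and dysfunction factors that holds both had 2 members higher and 8 lower of 19, with medians of -0.88 and -0.18.

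Survival, signalling and metabolic genes made up most of the remaining top-ranked lower genes. Bcl2a1b, an anti-apoptotic gene, had -2.74 and -3.91. Its near-identical copy Bcl2a1d had -1.31 and a larger WT difference of -3.60, and since reads may be split between the copies their single values are uncertain. Bcl2l1, which encodes the survival protein BCL-XL, was detected in 2 of 12 Tcf7-detected against 11 of 19 Tcf7-undetected cells on the KO plate and in 8 of 33 against 9 of 19 on the WT plate, with -3.01 and -2.14. Rgs1, a regulator of G-protein signalling that dampens chemokine responses, had -2.42 and -3.84. Its medians were 472.1 FPKM in Tcf7-detected and 1291 FPKM in Tcf7-undetected cells on the KO plate, and 0 and 1120 FPKM on the WT plate. The glycolytic enzyme gene Aldoa had -2.71 and -3.04, with medians of 772.4 against 1683 FPKM on the KO plate and 331.2 against 1170 FPKM on the WT plate. Of 19 glycolysis genes, 5 were higher and 9 lower on both plates, again beside 21.1% and 28%, with medians of -0.76 and -0.19. The glutamine transporter gene Slc1a5 had -2.50 and -2.74, the actin-capping gene Capg -2.31 and -2.25, and the NADPH oxidase subunit gene Cyba -3.27 and -2.18. The cyclin gene Ccng1 had -2.25 and -2.38 and the vesicle protein gene Syngr2 -2.46 and -1.95. Ccng1 and Slc1a5 no longer passed 1 on both plates among cells with at least 2000 genes. Aldoa, Rgs1 and Capg no longer did with at least 500 genes. On the ratio of mean FPKM, Slc1a5 and Capg no longer passed. That ratio for Syngr2, Tcf7-detected over undetected, was 1.68 and 0.179. Capg and Cyba are also expressed by macrophages. Both stayed past 1 on both plates without the 5 cells with macrophage genes. Among cells with at least 2000 genes, Cyba was no longer lower on both plates.

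**Figure D3:**
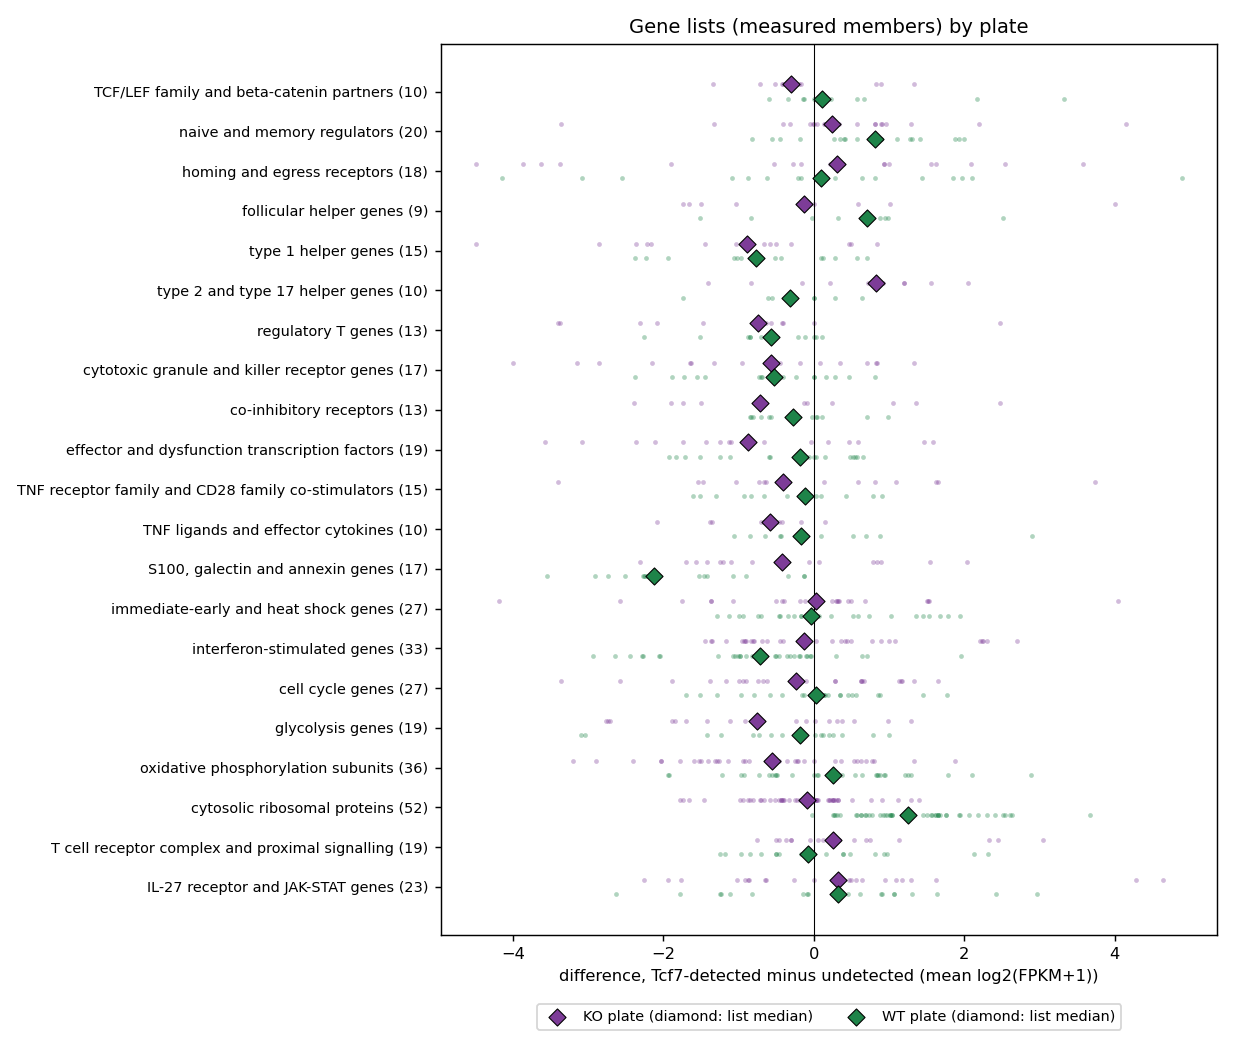
Differences between Tcf7-detected and Tcf7-undetected cells (horizontal axis, mean log2(FPKM + 1)) for measured members of 21 gene lists (number in brackets), with the KO plate in purple above the WT plate in green and diamonds for list medians. The ribosomal protein median is -0.10 on the KO plate and 1.26 on the WT plate, and the S100, galectin and annexin median is -0.43 and -2.12.

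Ribosomal protein, S100 and annexin, and interferon-stimulated genes had list medians farther from 0 on the WT plate than on the KO plate. Of 52 cytosolic ribosomal protein genes, 21 were higher and 1 lower in Tcf7-detected cells on both plates, beside 21.1% and 28% of the 8887 genes. The plates did not agree, with 21 higher and 31 lower on the KO plate and 51 higher and 1 lower on the WT plate. The list medians were -0.10 on the KO plate and 1.26 on the WT plate, and those of the 8887 genes -0.13 and 0.00. In matched cells the ribosomal medians were 0.14 and 1.00. Rps20 was called higher with 1.40 and 2.06. Of 17 measured S100, galectin and annexin genes, many of them genes of effector and tissue T cells, 0 were higher and 11 lower on both plates. All 17 were lower on the WT plate, but 6 were higher and 11 lower on the KO plate. No S100 gene was called. S100a4 had -1.42 and -0.90, while S100a6 (0.84 and -2.28), S100a10 (0.89 and -2.25), S100a11 and S100a13 were higher on the KO plate. The list also holds Crip1 and Capg. Their medians were -0.43 on the KO plate and -2.12 on the WT plate. Anxa2 (-1.70 and -3.55), Crip1 (-1.56 and -2.91), Lgals3 (-1.25 and -2.12) and Anxa5 (-1.21 and -2.51) were called lower with Capg, 5 of 17 beside 1.85% of the 8887 genes. In matched cells Crip1 had -0.77 and -2.74 and no longer passed. Of 33 interferon-stimulated genes, 1 was higher and 15 were lower on both plates, beside the same shares, with medians of -0.13 and -0.72. By plate, 15 were higher and 18 lower on the KO plate, and 4 and 29 on the WT plate. Ly6a was called lower with -1.45 and -2.65, but had -0.21 and -2.63 in matched cells. The interferon medians were -0.04 and -0.33 without the 5 cells with macrophage genes. Whether the plates differ in these groups was not tested.

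Tcf7-detected cells of the WT plate were not uniform. Ccr7 was detected in 17 of them and not in 16, and Lef1 was detected more often in the 17. Lef1 was detected in 14 of 17 Ccr7-detected against 6 of 16 Ccr7-undetected cells. Cxcr6 was detected in 0 of 17 (which allows up to 17.6%) against 6 of 16, S100a4 in 0 of 17 against 5 of 16 and Rgs1 in 3 of 17 against 10 of 16. Cd44, the receptor of antigen-experienced cells, was detected in 4 of 17 against 9 of 16. S1pr1 and Socs3 did not follow this split, at 14 of 17 against 12 of 16 and 12 of 17 against 13 of 16. Median genes per cell were 1858 in Ccr7-detected and 2009.5 in Ccr7-undetected cells. On the KO plate Lef1 and Ccr7 were detected together in 0 of 12 Tcf7-detected cells (up to 25%), and in 14 of 33 on the WT plate. The split on Ccr7 was chosen after the values were seen.

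**Figure D4:**
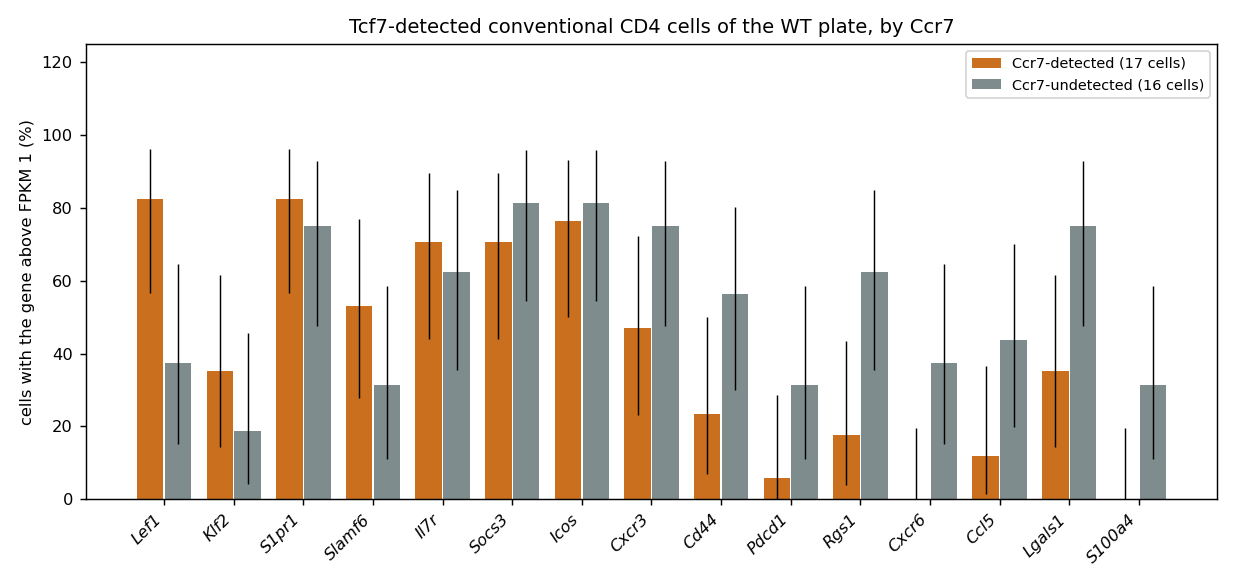
Share of Tcf7-detected conventional CD4 cells of the WT plate with each gene above FPKM 1 (vertical axis, percent), for 17 Ccr7-detected (orange) and 16 Ccr7-undetected cells (grey), with exact 95% intervals for counting error. Lef1 stands at 14 of 17 against 6 of 16 and Cxcr6 at 0 of 17 against 6 of 16, while S1pr1 and Socs3 are near each other.

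The same contrast was made in the series' CD8 cells, which took no part in choosing these genes. The CD8 plates held 48 Tcf7-detected and 32 Tcf7-undetected cells under the KO label, and 11 and 61 in WT, with no condition on Foxp3. Of the 93 genes called higher in CD4 cells, 13 were higher by at least 1 on both CD8 plates (13.98%), against 4.43% of all 3792 genes. Of the genes called lower, 26 were lower by at least 1 on both (16.99%), against 7.46%. In direction alone, 43.01% of the higher genes matched on both CD8 plates, against 23.4% of all genes, and 46.4% of the lower genes, against 39.1%. S1pr1 had 2.39 and 4.65 in CD8 cells (KO label and then WT), Socs3 2.68 and 5.41, Itgb7 2.18 and 4.67 and Cxcr6 -1.94 and -5.37. Slamf6 had -0.61 and 2.58, Sec13 -1.80 and -1.60, and Ccl5 1.40 and -0.33. Lef1 had 1.85 and 3.84 and Ccr7 1.98 and 4.24. The direction matched on both CD8 plates for 8 of the 12 top-ranked higher genes and 9 of the 12 lower ones.

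Windows from 250 bases before to 50 after the start used for each promoter were searched on both strands for the TCF/LEF core motif. The motif was spelled CTTTGAT or CTTTGAA. That start can lie away from the gene start in GENCODE, as for Pde4b, with a window of 102421305 to 102421604 and a gene start of 102087543. Among called genes with a sequence, 5 of 71 higher genes (7.04%) and 9 lower genes (8.11%) held a match, against 5.87% of the compared genes with a sequence and 8.77% of all 27025 promoters. Of the 24 top-ranked genes, 16 had a sequence and 3 of these a match, namely Tagap, Bcl2a1b and Syngr2. Tagap and Syngr2 are shown as 1 higher and 1 lower gene, from RefSeq on GRCm38.p6, in lower case with the match in capitals. The Tagap window is chr17:7925750-7926049 and that of Syngr2 chr11:117809417-117809716, both on the plus strand.
Tagap: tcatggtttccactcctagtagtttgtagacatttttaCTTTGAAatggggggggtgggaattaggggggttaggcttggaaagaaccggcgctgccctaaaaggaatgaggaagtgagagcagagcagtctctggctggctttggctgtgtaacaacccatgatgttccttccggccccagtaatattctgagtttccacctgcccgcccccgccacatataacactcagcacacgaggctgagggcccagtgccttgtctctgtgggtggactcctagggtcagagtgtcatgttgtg
Syngr2: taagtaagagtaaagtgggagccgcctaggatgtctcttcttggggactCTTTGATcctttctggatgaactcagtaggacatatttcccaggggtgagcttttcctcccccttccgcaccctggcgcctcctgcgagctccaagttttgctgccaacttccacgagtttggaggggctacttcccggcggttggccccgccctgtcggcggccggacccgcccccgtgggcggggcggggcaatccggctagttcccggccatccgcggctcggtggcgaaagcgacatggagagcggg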

How the data were processed

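Smart-seq2 libraries of single cells (94 on each of 4 plates) and 4 population wells were used as 1 deposited matrix of 23420 genes and 380 libraries, and the wells were left out. The authors deposited FPKM values, normalized between libraries by TMM as the matrix is named. RSEM, Bowtie and the mm10 build are named per the submitters' processing notes, without versions. Depth in reads is not given, and of 397261 low values 19.2% lay within 0.05 of a whole read against 10% if evenly spread, so reads were not recovered and no count model was run. Genes per cell above FPKM 1 stand in for depth.

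Cells were assigned to plates by their titles. Differences are means of log2(FPKM + 1), Tcf7-detected minus Tcf7-undetected, computed within a plate, and understate changes of low genes. Tcf7 itself was left out. List members needed detection in at least 10% of 1 side on either plate. Shares have exact Clopper-Pearson 95% intervals, and the upper limit for a share of 0 is 3 cells of the total. Both cover counting error over cells only. No p-value was computed, since cells are not replicates and Tcf7 of the same cells chose the sides. No doublet caller was run, and cells above 4000 genes were left out as an alternative instead.

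The named genes are the 12 highest and 12 lowest by the smaller of the 2 plate differences, the markers Lef1, Ccr7 and S1pr1, up to 5 members per list with the same sign on both plates, and members past 1 with opposite signs. Il27ra, Il21, Bcl2a1d and a few list members such as Tbx21 were named outside this rule after their values were seen. The members and the 29 gene lists, 8 of them markers of other cells, were chosen with earlier results of these data known. Positions are from GENCODE on GRCm38, which is mm10. Python 3.11.15, pandas 2.3.3, NumPy 2.4.6, SciPy 1.17.1 and matplotlib 3.10.9 were used, and the scripts were tested on simulated data.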

Additional observations from a re-analysis of the deposited data

Results flagged for a closer look

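Some genes differed between Tcf7-detected and Tcf7-undetected cells in opposite directions on the KO and WT plates, by at least 1 each way for 1.79% of the 3792 genes compared that were higher on the KO plate and 2.74% that were higher on the WT plate. This difference between plates was not tested, and all values are log2 differences, KO plate and then WT plate. Lef1, listed as a marker with opposite signs at any size, had -0.51 and 3.33. In cells matched on genes detected it had 0.35 and 2.13. Among lymphocyte genes, the kinase gene Txk had -1.32 and 1.93, the transcription factor gene Ikzf3 1.59 and -1.92, the lymphotoxin gene Ltb -2.08 and 2.91, the adaptor gene Lat 3.05 and -1.25, and the kinase gene Jak1 -1.77 and 2.42. Among S100 and interferon-stimulated genes, S100a11 had 2.04 and -1.42, S100a13 1.55 and -1.07, and Ifi27l2a 1.09 and -2.45. Among cell cycle and respiratory chain genes, Mcm2 had -2.58 and 1.77, Hmgb2 1.17 and -1.70, Ndufa6 -2.03 and 1.21, Cox4i1 -2.90 and 2.10, and Atp5o 1.33 and -1.94. Ribosomal protein genes were among them, Rpl14 with -1.46 and 1.61, Rpl38 with -1.65 and 1.66 and Rps19 with -1.73 and 1.94.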

How the results depend on the processing

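The shares of compared genes called higher (2.45%) and lower (4.03%) depended on which cells and which scale were used. With at least 2000 genes per cell they were 5.49% and 7.15%, and 48 of the 93 higher and 81 of the lower genes were the same. With at least 500 genes they were 13.4% and 0.607%, with an all-gene median of 0.43 averaged over the plates. That floor added only Tcf7-undetected cells, from 19 to 24 on the KO plate and from 19 to 26 on the WT plate. The Tcf7-detected cells stayed at 12 and 33. A pseudocount of 0.1 gave 5.72% and 8.23%, and a detection filter of 40% gave 3.32% and 5.31% of a smaller set of genes. Matching cells on genes detected gave 4.08% higher, and keeping cells with Cd4 and without Cd8a gave 3.64% higher. Without the WT plate the shares were 14.6% and 20.7%, and without the KO plate 14.3% and 13.6%, since a gene then had to pass on 1 plate only. The sets changed more than the counts, since the ratio of mean FPKM shared 38 of the higher and 67 of the lower genes, matched cells 56 and 98, and leaving out cells with macrophage genes 73 of the higher genes. The counts stayed within 1.5 times under the other alternatives tried, including 2 chosen after seeing the data, leaving out cells above 4000 genes and leaving out cells with macrophage genes. The cause of the other shifts was not tested. Directions of values averaged over the plates reversed in 9 instances. With at least 2000 genes the co-inhibitory median was 0.059 and that of TNF ligands and effector cytokines 0.21. With at least 500 genes the co-stimulator median was 0.42, the interferon-stimulated median 0.21, the glycolysis median 0.19 and the difference of the tubulin gene Tuba1b 0.23. On the ratio of mean FPKM the co-stimulator median was 0.0079, the IL-27 receptor and JAK-STAT median -0.040 and the Itgb7 difference -0.32. Of the 24 top-ranked genes, 17 passed 1 on both plates with at least 2000 genes, 20 with at least 500, 14 on the ratio of mean FPKM and 23 in matched cells. No paired analysis was possible because cell numbers are unique library numbers and no test was run. With 12 to 33 cells a side, detection shares have wide intervals.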

Other observations

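Co-stimulatory receptors varied by gene and not as a group. Cd28, the main co-stimulator of naive T cells, was detected in 100% of Tcf7-detected against 52.6% of Tcf7-undetected cells on the KO plate and in 72.7% against 63.2% on the WT plate, with differences of 3.74 and 0.42. In cells matched on genes detected they were 3.72 and -0.78. Of the 15 co-stimulators measured, 2 were higher and 5 lower on both plates, beside 21.1% and 28% of the 8887 genes that met the lists' filter.

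Slamf6 and Ccr7 were detected together in 1 of 12 Tcf7-detected cells on the KO plate and in 9 of 33 on the WT plate, and in 0 of 19 Tcf7-undetected cells of either plate, which allows up to 15.8%. Slamf6 without Ccr7 was detected in 6 of 12 Tcf7-detected against 1 of 19 Tcf7-undetected cells on the KO plate, and in 5 of 33 against 3 of 19 on the WT plate. Pdcd1 and Slamf6 were detected together in 1 of 12 and 4 of 33 Tcf7-detected cells and in no Tcf7-undetected cell. These combinations were chosen after the values were seen.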
